A study of Mus musculus with 10 samples.

Results

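The sham group was the control of a study of neonatal increase of pulmonary blood flow, and the 5 sham lungs are described here without the 5 lungs of the fistula group. Sham pups were wild type (C57/BL6, either sex by the methods). They were anesthetized and had the abdomen opened at P7 as the fistula group did, but the abdominal aorta was not punctured, and the lung was taken at P14. Of the 54532 genes in the table of the series, 15316 had a mean of at least 0.5 FPKM over the 5 sham lungs, and these are the genes described. FPKM gives the sequenced fragments of a gene relative to its length in kilobases and to a size assigned to the library. The gene just inside this limit was Gm15489 (0.5003 FPKM) and the gene just outside was Alkbh3os1 (0.499 FPKM). The labels number the samples but do not say that each is a separate animal, so the spread between them may be partly technical.

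P14 lies in the alveolar stage of the mouse lung, when septa grow into the air sacs and divide them into alveoli. The alveolar epithelium consists of flat AT1 cells, through which gas is exchanged, and of cuboidal AT2 cells, which make surfactant. Under them lies a dense capillary net of general capillary cells and aerocytes, together with fibroblasts, pericytes and the elastin-producing myofibroblasts of the septal tips. The conducting airways are lined by secretory (club) cells and by ciliated cells. In bulk RNA fewer cells of a type and less RNA per cell cannot be told apart.

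Each sham lung had 18171494 to 19400575 fragments on genes, and 23190 to 24006 genes were above 0. In a gene of 1 kb, 1 fragment was worth 0.0523 to 0.0574 FPKM. The library size that this implies was 0.958 to 1.03 times the fragments on genes, so it was not simply their total. Where a gene is at 0, a count of 0 still allows up to 3 fragments, and this floor covers counting error only. No pair of lungs had the same library, since their counts differed by a chi-square of 12.7 to 36.2 per gene, far above the 1 that counting alone gives. Pearson's r of log2(FPKM + 0.1) over the 15316 genes averaged 0.958 across the 10 pairs of lungs. It was lowest, at 0.942, between lungs 3 and 5, and averaged 0.963 among the other 4 lungs when lung 5 was left out. These r are over genes, which are not independent replicates. The first principal component of the log2 values held 36.9% of the variance and placed lung 5 at one end (score 51.4) and lung 3 at the other (-33.4). Lung 5 therefore stood apart from the rest, and the main values that rest on it are given with and without it. All 5 lungs had the Y-linked Ddx3y, at 21.8 to 24.6 FPKM. The Y-linked Eif2s3y, Uty and Kdm5d averaged 12.6, 3.18 and 2.31 FPKM, and the X-linked Xist averaged 0.0285.

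The sham lung transcriptome was led by surfactant and airway secretory transcripts, mitochondrial transcripts and extracellular matrix. Of the 15316 genes, 13407 reached 1 FPKM, 5183 reached 10, 352 reached 100 and 15 reached 1000. Protein-coding genes were 85.2% of them (13042) and held 92.9% of their FPKM. Processed pseudogenes numbered 632, antisense genes 346 and lincRNA genes 327. The 142 genes annotated as miRNA held 3.24% of it, and 8665 of their summed 9242 FPKM lay on the short gene Gm23935, whose mean was 5101 ± 2419.9 without lung 5. The 10 highest genes of a lung held 15.2% ± 1.94 of its summed FPKM (SD, n = 5), and 563 to 718 genes held the upper 50% of it.

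**Figure D1:**
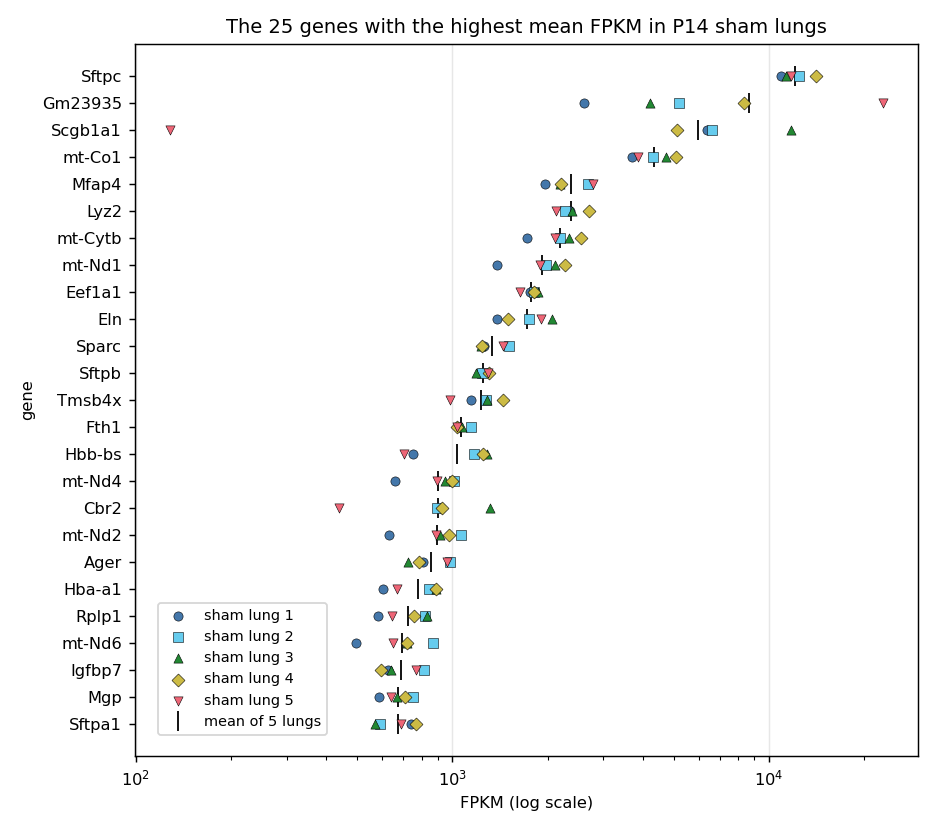
FPKM (log scale) of the 25 genes with the highest mean in the 5 sham lungs, with 1 point per lung and a bar for the mean. Most genes have their lungs close together, while Gm23935, Scgb1a1 and Cbr2 spread by 2.99 to 91.4 times between the highest and the lowest lung, or 1.47 to 3.20 times without lung 5.

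Sftpc, the AT2 gene for surfactant protein C, was the most abundant gene. It lies at chr14:70520949-70524081 on the minus strand of GRCm38. Its level was 10934, 12433, 11320.0, 14074 and 11716 FPKM in lungs 1 to 5, with a mean of 12095 ± 1237 and 4.22% ± 0.383 of all FPKM. Lung 4 was the highest and lung 1 the lowest, at 1.29 times apart. The other surfactant proteins among the 25 highest genes were Sftpb (1250.0 ± 49) and Sftpa1 (671 ± 87.9). Sftpb, which is needed for the spreading of surfactant lipids, had the smallest spread of the 25, from 1188 to 1302 FPKM, a ratio of 1.10.

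Scgb1a1, which codes for the secretoglobin of club cells, was the third gene by mean, and the second without lung 5 (chr19:9083636-9087958, minus strand). It was at 6365, 6616, 11743, 5116 and 128 FPKM in lungs 1 to 5. The level in lung 5 was far below the other 4 and lung 3 led, so that the mean of 5994 ± 4146 became 7460.1 ± 2929.7 without lung 5. The highest lung was 91.4 times the lowest with lung 5 and 2.30 times without it. Cbr2, a carbonyl reductase of club cells, had the same lungs at its ends, with 919, 894, 1313, 927 and 439 FPKM, 2.99 times apart with lung 5 and 1.47 times without it.

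The matrix genes among the highest were Mfap4, Eln, Sparc, Igfbp7 and Mgp. Mfap4, a microfibril-associated glycoprotein, reached 1961, 2692, 2191, 2212 and 2783 FPKM in lungs 1 to 5, and lungs 2 and 5 were above the other 3. Eln, the gene for tropoelastin, reached 1387, 1750.0, 2061, 1499.8 and 1907 FPKM, with lung 3 highest and lung 1 lowest. Sparc, a collagen-binding matrix protein, averaged 1338 ± 132 FPKM. Eln, with a length of 8098 bases in the table, had the most fragments of all genes, with a mean of 256770 per lung against 230912 on Sftpc. Next by fragments were mt-Co1 (123862), Sparc (93305), Mfap4 (83755), Eef1a1 (81728), Col4a1 (76120) and Col3a1 (68001). Of the 25 highest genes by fragments 11 were also among the 25 highest by FPKM.

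Of the remaining high genes, Lyz2, the lysozyme of macrophages and AT2 cells, averaged 2366 ± 211 FPKM. Ager, the receptor for advanced glycation end products on AT1 cells, averaged 853 ± 114. The translation factor Eef1a1 (1777 ± 84.3), the ferritin heavy chain Fth1 (1067 ± 48.6) and the actin-binding peptide Tmsb4x (1228 ± 172) are expressed in almost all cells. Hbb-bs and Hba-a1, the adult globins of red cells, were at 1032 ± 282 and 779 ± 132 FPKM. In 22 of the 25 genes the highest lung was less than 2-fold the lowest, by at most 1.83 times, and the 3 exceptions were Gm23935, Scgb1a1 and, through lung 5, Cbr2. A 2-fold spread was found in 13.1% of all 15316 genes, where the lowest lung was raised to 3 fragments for the ratio. All 25 genes had a mean of at least 6633 fragments.

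The second gene by mean, and the third without lung 5, Gm23935, is 57 bases long and annotated as a miRNA. It lies at chr16:11144125-11144181 on the plus strand of GRCm38, inside the gene Zc3h7a, which is on the minus strand. Its level was 2613, 5212, 4223, 8356 and 22922 FPKM in lungs 1 to 5, with lung 5 the highest and lung 1 the lowest, 8.77 times apart, or 3.20 times without lung 5. The sequence is shown because identical copies decide where its fragments can be placed. It is printed 5′ to 3′ from GENCODE M21 in the direction of the gene. Capitals mark bases that lie in a 20-base word of Gm23935, and 73.7% of the bases of Gm23935 are G or C.
Gm23935: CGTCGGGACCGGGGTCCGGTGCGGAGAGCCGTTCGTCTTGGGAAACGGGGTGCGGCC
Gm24187: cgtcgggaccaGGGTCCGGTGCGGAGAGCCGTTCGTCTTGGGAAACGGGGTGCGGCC
Gm24270 (chr9:56223715-56223771, minus strand) and Gm24245 (chr4:139338304-139338360, plus strand) have the same 57 bases as Gm23935. Gm24270 was at 103, 151, 108, 287 and 517 FPKM in lungs 1 to 5, again with lung 5 highest, and Gm24245 was at 0 in each. Gm24187 (chr13:9834469-9834525, minus strand) shared 27 of the 38 words of 20 bases and averaged 0.941 FPKM. Since identical sequences cannot be told apart by a read, the split of the level among these copies depends on how repeated matches were counted, which is not given in the sources used here. CT010467.1, annotated as rRNA, was at 138, 238, 160.4, 434 and 1217 FPKM, and Lars2, the mitochondrial leucyl-tRNA synthetase, at 4.27, 7.04, 6.07, 9.38 and 24 FPKM, both with lung 5 highest and lung 1 lowest as in Gm23935. Whether rRNA in the libraries had a part in the level of Gm23935 was not tested.

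Of the mitochondrially encoded genes 6 were among the 25 highest, and together mitochondrial genes took 4.43% ± 0.576 of FPKM. mt-Co1, a subunit of cytochrome c oxidase, was at 3688, 4298, 4740.1, 5092 and 3854 FPKM in lungs 1 to 5. Lung 1 was the lowest of the 5 in 12 of the 12 mitochondrial genes above 0.5 FPKM, with a median of -0.53 on the log2 scale against the median lung. The level differed widely along the same genome: mt-Cytb averaged 2184 and mt-Nd1 1924 FPKM, but mt-Co2 51.4, mt-Atp6 45.6 and mt-Co3 39.3. Words of 50 bases that also occur in another annotated gene were 100% of mt-Co2, 99.5% of mt-Atp6 and 99.9% of mt-Co3, but 0% of mt-Cytb and mt-Nd1. The share and the level did not go together throughout: it was 51.1% for mt-Co1 and 62.2% for mt-Nd4 (902 FPKM), and 0% for the short mt-Atp8, which averaged 0.483 FPKM. Such words were also 98.0% of mt-Nd3 (46.3 FPKM) and 98.8% of mt-Nd4l (16.3 FPKM). The levels of mt-Co2, mt-Atp6, mt-Co3, mt-Nd3 and mt-Nd4l, and in part of mt-Co1 and mt-Nd4, are therefore uncertain. So is the mitochondrial share of FPKM.

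Sftpc, Ager, Cdh5, Scgb1a1 and Acta2, which mark the main cell types of the lung, were each at 60.3 FPKM or more in every lung. The marker lists gave the order AT2, airway secretory, AT1, erythroid, pan-endothelial and alveolar fibroblast by summed FPKM. The AT2 list of 12 genes summed to 15537 ± 1418 FPKM, which was on average 48.0% of the FPKM of all 36 cell type lists in a lung. Next came the airway secretory list at 7238 ± 4727 (8903 ± 3364 without lung 5) and the AT1 list at 2129 ± 292. The erythroid list summed to 1996 ± 469, the pan-endothelial list to 1503 ± 169 and the alveolar fibroblast list to 877 ± 87. A sum depends on the genes in the list and is no estimate of cell numbers. Scgb1a1 alone gave 5994 of the secretory sum. By the median of the gene means in a list the AT2, AT1 and pan-endothelial lists ranked 1, 2 and 3, while the erythroid list ranked 7 and the airway secretory list 23 of 36. Per lung the AT2 sums (14459 to 17887) lay above all other lists. The erythroid sums overlapped both the AT1 and the pan-endothelial sums between lungs, and the secretory sums of 7623, 7847, 13844, 6296 and 581 in lungs 1 to 5 fell in lung 5 below the alveolar fibroblast sum.

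**Figure D2:**
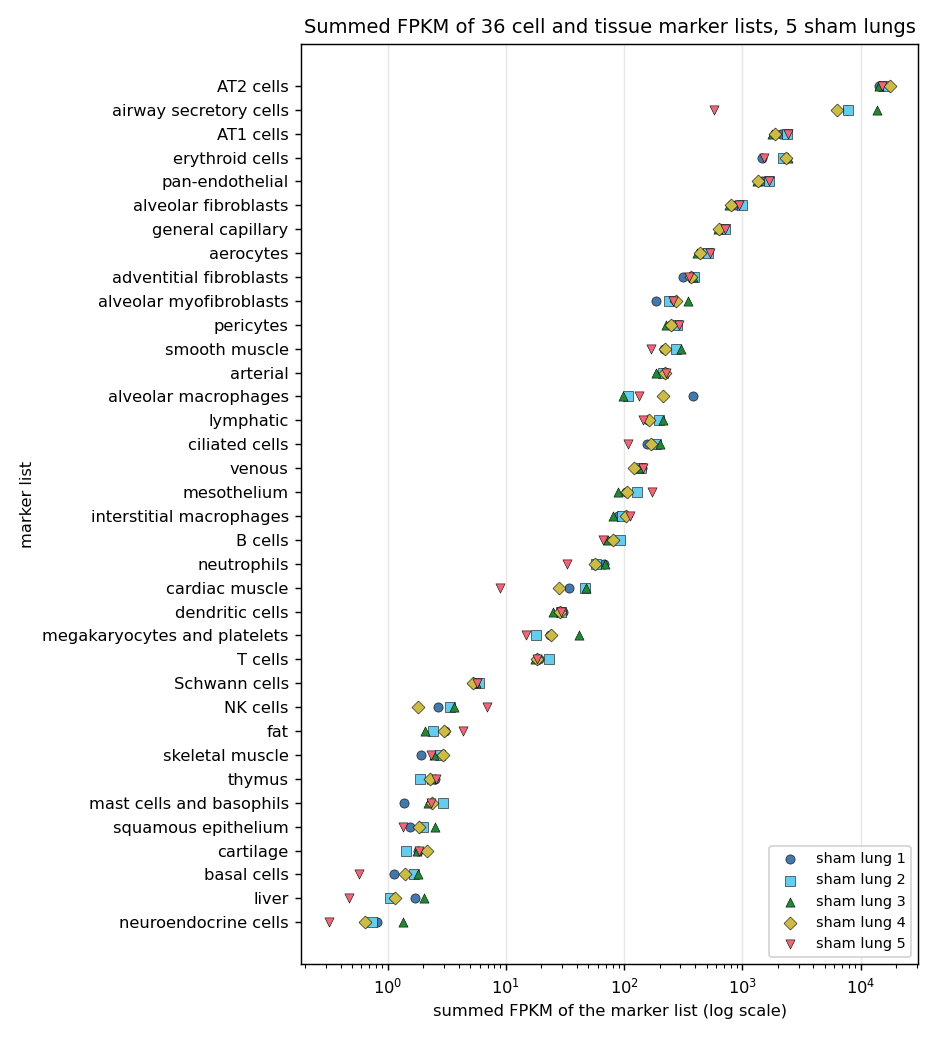
Summed FPKM (log scale) of each cell type list in the 5 sham lungs, with 1 point per lung, ordered by the mean. Lung 5 lies far below the other 4 for the airway secretory list and is the highest of the 5 for the mesothelial list.

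AT2 genes were high in every lung. All 12 were above the limit, from Etv5, a transcription factor of AT2 cells, at 37.5 ± 5.04 FPKM to Sftpc. Cxcl15, the lung chemokine of epithelial cells, was at 464, 506, 502, 609 and 438 FPKM, with lung 4 highest. Slc34a2, the phosphate transporter, averaged 380.5 ± 49.5, the collectin Sftpd 184 ± 24.2, the lamellar body protein Lamp3 128 ± 17.5 and the lipid transporter Abca3 43.3 ± 8.53 FPKM. In none of the 12 was the highest lung 2-fold the lowest, against 13.1% of all 15316 genes (10.5% without lung 5). The 2-fold share depended on level, from 47.9% of genes between 0.5 and 1 FPKM to 12.0% between 1 and 10, 1.88% between 10 and 100 and 4.83% above 100, so that a count of 0 among 12 genes of high level is near the background. The median SD of log2(FPKM + 0.1) between lungs was 0.19 for the AT2 list and 0.17 for all genes. Lung 4 was the highest of the 5 in 10 of the 12 AT2 genes.

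AT1 genes were led by Ager, at 810.4, 983, 725, 783 and 964 FPKM in lungs 1 to 5 (chr17:34597862-34600936, plus strand). Lungs 2 and 5 were above the other 3. Hopx, a homeodomain protein, averaged 219 ± 19.6, the tight junction protein Cldn18 189 ± 13.7, the membrane protein Emp2 188 ± 34.2, the water channel Aqp5 89.8 ± 11.5 and podoplanin, Pdpn, 59.5 ± 7.56 FPKM. Only Igfbp2 of the 12 spread by more than 2-fold, with 103, 152, 106, 72.5 and 182 FPKM, highest in lung 5 and lowest in lung 4. Over all genes the share was 1.88% at 10 to 100 FPKM and 4.83% above 100. The lowest lung was lung 3 in 10 of 12 AT1 genes and also in 9 of 11 pan-endothelial genes.

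Airway secretory genes varied widely, and much of this rested on lung 5: the median SD of the list was 2.16 log2 units with it and 0.51 without it. Scgb3a2, another secretoglobin, was at 154, 158, 439, 126 and 3.92 FPKM and Cyp2f2, a cytochrome P450 of club cells, at 184, 178, 346, 125 and 7.49 FPKM in lungs 1 to 5. In both, lung 3 was the highest and lung 5 was more than 10-fold below the next lowest. Scgb3a1, a secretoglobin of larger airways, was at 1.12, 0.888, 1.60, 1.57 and 1.34 FPKM. Of the 9 secretory genes 5 were above the limit, and 4 of the 5 spread by at least 2-fold (3 without lung 5). Over all genes the share was 13.1%, or 10.5% without lung 5. Bpifa1, of the upper airway epithelium, was at 0 in every lung, and Bpifb1, Muc5b and Reg3g averaged 0.0977, 0.0496 and 0.0372 FPKM.

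Ciliated cell genes had the same lungs at the ends. Foxj1, the regulator of motile ciliogenesis, was at 8.98, 9.53, 16.7, 6.56 and 0.285 FPKM in lungs 1 to 5. Dynlrb2, a dynein light chain, was at 10.9, 8.97, 16.7, 9.88 and 1.24, Tekt1, a tektin of the axoneme, at 2.75, 2.42, 4.36, 2 and 0.248, and Ccdc153 at 4.82, 4.64, 11, 3.34 and 0 FPKM. Lung 5 was the lowest of the 5 in 12 of 12 measured ciliated genes and lung 3 the highest in 11 of 12. Ccdc153 had no fragment in lung 5, so lung 3 was at least 130 times higher, with lung 5 set to 3 fragments. The highest lung was at least 2-fold the lowest in 11 of 12 genes and in 8 of 12 without lung 5, against 13.1% and 10.5% of all genes. The exception with lung 5 was Tppp3, a tubulin-binding protein, at 109, 143, 121, 133 and 104 FPKM. The median of the list in lung 5 was -3.21 on the log2 scale against the median lung, beside -4.55 for the secretory list. Without lung 5 the median SD of the ciliated list went from 1.60 to 0.48 log2 units.

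**Figure D3:**
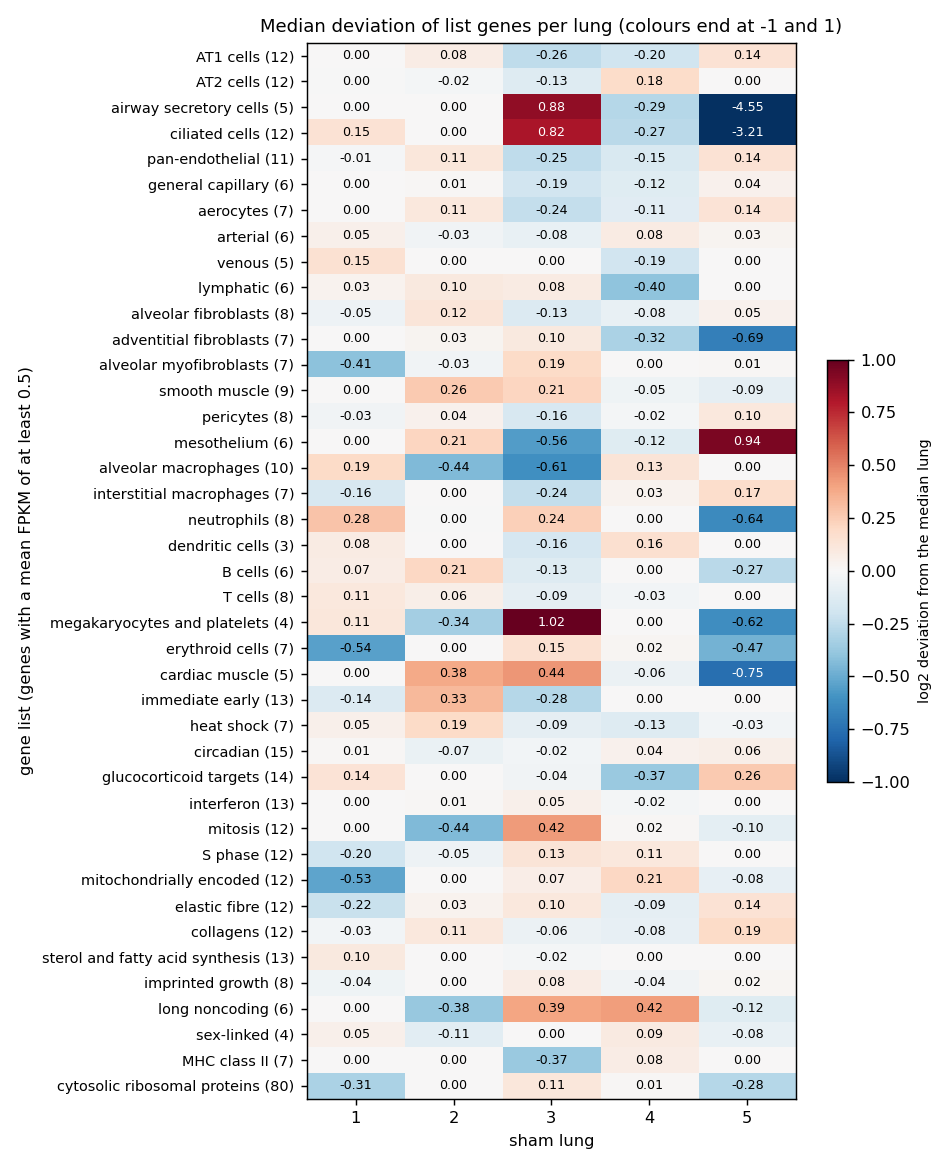
Median deviation of the genes of each list (number of genes above 0.5 FPKM in brackets) in each sham lung from the median of the 5 lungs, on the log2 scale, in rows by list and columns by lung. Lung 5 is at -4.55 for the secretory and -3.21 for the ciliated list and at 0.94 for the mesothelial list, while the AT2 list stays between -0.13 and 0.18.

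The start regions of ciliated cell genes are printed because nearly all of these genes had the same lungs at the ends. The motif GTTGCC is the core of the X-box bound by RFX factors, which act in ciliogenesis together with Foxj1. RefSeq promoters on GRCm38.p6 were matched for 10 of the 13 ciliated genes, as 13 start sites, and the 250 bases before the start were searched on both strands. GTTGCC occurred before 7 of the 13 starts, which belong to 7 genes, against 10.4% of all 32851 promoters, and the shorter GTTNCC, which contains it, before 10 of 13 against 39.4%. CCAAT was found before 6 of 13 (33.8% of all) and TATAAA before 1 (12.4%). For the secretory list, 7 starts of 6 genes were matched, with GTTGCC before 0, GTTNCC before 4, CCAAT before 1 and TATAAA before 2. Scgb1a1 and Scgb3a2 were not among them, so the count of 0 for GTTGCC does not cover these strongly varying genes. Scgb3a2 was missing because the list search left out the chromosome that holds it. Of the matched genes, Bpifa1, Bpifb1 and Reg3g were below the limit, and Scgb3a1 was not lowest in the same lung as the ciliated genes. Only Cyp2f2 and Cbr2 had the same lungs at the ends, so these counts give no contrast between the varying genes of both lists. The median GC content was 50% for the ciliated list and 52.4% for all promoters. In the 3 sequences below, 5′ to 3′ along the gene, capitals mark GTTGCC or its complement GGCAAC, and the last base lies just before the start. They lie at chr9:44240427-44240676 (plus strand, Ccdc153), chr11:72361883-72362132 (minus strand, Tekt1) and chr8:116504765-116505014 (plus strand, Dynlrb2).
Ccdc153: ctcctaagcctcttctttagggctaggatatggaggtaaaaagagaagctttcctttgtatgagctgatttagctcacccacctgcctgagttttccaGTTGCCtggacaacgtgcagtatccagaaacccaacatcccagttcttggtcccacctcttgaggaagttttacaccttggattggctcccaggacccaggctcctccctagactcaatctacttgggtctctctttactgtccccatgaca
Tekt1: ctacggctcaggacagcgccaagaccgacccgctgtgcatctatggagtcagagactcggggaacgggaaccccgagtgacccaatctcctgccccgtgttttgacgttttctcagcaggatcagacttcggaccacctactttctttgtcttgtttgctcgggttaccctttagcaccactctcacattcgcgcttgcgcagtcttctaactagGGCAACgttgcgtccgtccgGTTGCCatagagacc
Dynlrb2: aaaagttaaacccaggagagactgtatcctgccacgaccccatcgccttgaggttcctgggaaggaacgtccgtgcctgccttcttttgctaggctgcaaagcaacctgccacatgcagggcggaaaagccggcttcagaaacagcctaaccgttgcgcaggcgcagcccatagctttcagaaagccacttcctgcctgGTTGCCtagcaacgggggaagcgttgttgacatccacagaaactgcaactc
Tekt1 holds the motif on both strands within a short stretch, and the other two hold it once. A match is a description of the letters and not a bound site.

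Genes of rarer airway cells were near the floor. All 6 basal cell genes, among them the keratin Krt5 (0.00484 FPKM) and the transcription factor Trp63 (0.118), were under 0.5 FPKM on average. The same held for all 8 neuroendocrine genes, such as Calca (0.179) and Chga (0.0272). Krt15 was the highest basal gene, at 0.347, 0.661, 0.932, 0.533 and 0 FPKM, and was at 0 in lung 5.

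Genes of the capillary and pan-endothelial lists were high in every lung. Cdh5, which codes for VE-cadherin, was at 347, 376, 275, 301 and 397 FPKM in lungs 1 to 5 (chr8:104101625-104144511, plus strand), with a mean of 339 ± 50.7 and rank 65 among all genes. Lung 5 was the highest and lung 3 the lowest. Cldn5, the endothelial claudin, averaged 405 ± 62.9, Pecam1 (CD31) 168 ± 18.1, Ramp2, a co-receptor for adrenomedullin, 103 ± 7.09, and Kdr, the VEGF receptor, 57.6 ± 10.8 FPKM. The level of Ramp2 is uncertain. Of its exonic bases 33.4% are also exons on the same strand, mainly of Vps25, and 73.8% of its 50-base words occur in another gene. Of 41 endothelial genes above the limit 3 spread by at least 2-fold, with and without lung 5, and all 3 were lymphatic list genes. The share over all genes is 1.88% at 10 to 100 FPKM and 12.0% at 1 to 10, and the median SD of the pan-endothelial list was 0.18 log2 units beside 0.17 for all genes.

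Both capillary cell types of the alveolus were represented. In the general capillary list, Plvap, of the diaphragms of fenestrae and caveolae, was at 234, 242, 239, 252 and 237 FPKM, the receptor Aplnr averaged 56.4 ± 6.22, and Gpihbp1, which anchors lipoprotein lipase, 50.6 ± 4.70. Plvap was within 1.08 times between all lungs. In the aerocyte list, the carbonic anhydrase Car4 was at 71.2, 76.8, 49.9, 65.8 and 77.9 FPKM, the endothelin receptor Ednrb averaged 35.9 ± 5.61, and the ligand Apln 40.3 ± 5.51. Lung 3 was the lowest for Car4, Ednrb and Apln.

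Larger vessels and lymphatics had lower levels. The arterial genes Gja4 and Gja5, both connexins, averaged 65.4 ± 4.87 and 8.55 ± 2.26 FPKM, and Sox17, a transcription factor of arterial endothelium, 29.8 ± 1.36. Of the venous list, Nr2f2 averaged 15.2 ± 1.62 and Vwf 22 ± 2.51, and Slc6a2, the noradrenaline transporter, 20 ± 3.81. Prox1, the master regulator of lymphatic endothelium, was at 0.584, 0.702, 0.602, 0.536 and 0.712 FPKM, while Lyve1, which macrophages also express, averaged 137 ± 15.9. The 3 lymphatic genes with a spread of at least 2-fold were Ccl21a, Tbx1 (1.47, 1.37, 2.70, 0.729 and 1.26) and Mmrn1 (4.35, 3.49, 2.95, 2.14 and 2.99). Lung 4 was the lowest in each.

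The highest mesenchymal list was that of the alveolar fibroblasts. Npnt, the integrin ligand nephronectin, was at 476, 552, 378, 429 and 538 FPKM, with lung 3 lowest. Tcf21, a transcription factor of lung mesenchyme, averaged 109 ± 10.1, the lipid hydrolase Ces1d 148 ± 14.5, Pdgfra 58.1 ± 12.4 and Fgf10, a growth factor for the epithelium, 7.24 ± 0.469. None of the 8 genes spread by 2-fold. Of the pericyte genes, Pdgfrb averaged 85.4 ± 11.6, Cox4i2 79.3 ± 10.1 and Higd1b 38.6 ± 3.42 FPKM, and 0 of 8 spread by 2-fold. Both counts of 0 are near the share over all genes, 12.0% at 1 to 10 FPKM, 1.88% at 10 to 100 and 4.83% above 100. Adventitial fibroblast genes were led by the matrix proteins Dpt (239 ± 22.5) and Clec3b (93.9 ± 11.6), whereas Dcn (7.5, 10.3, 8.66, 4.82 and 4.62) and Pi16 (1.51, 1.18, 2.29, 0.840 and 0.375) were low. Dcn and Pi16 were lowest in lung 5, and the median of the 7 genes there was -0.69 log2 units from the median lung.

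Smooth muscle genes included the marker Acta2 (chr19:34241090-34255336, minus strand), which codes for smooth muscle actin and is also made by myofibroblasts. It was at 90.9, 126, 156, 106 and 60.3 FPKM in lungs 1 to 5, with a mean of 108 ± 36 (119.6 ± 28.1 without lung 5) and rank 314. Lung 3 was the highest and lung 5 the lowest, at 2.58 times, or 1.71 times without lung 5. Cnn1, the calponin of contractile smooth muscle, had the same ends at 7.47, 9.33, 12.6, 4.93 and 0.756 FPKM, 16.7 times apart and 2.56 times without lung 5. Actg2, an actin of smooth muscle, had them too, at 14.5, 20.6, 21.4, 12.5 and 7.30. These 3 genes were the exception in having lung 3 highest, since lung 2 was the highest in 6 of the 9 smooth muscle genes. The lowest was lung 5 in 5 of 9 and lung 4 in 3, and the median of the list in lung 5 was -0.09 log2 units from the median lung. Mylk, the myosin light chain kinase, was within 1.08 times (48 ± 1.47), and desmin, Des, within 1.25 times (27.5 ± 2.86). Myh11, the smooth muscle myosin, averaged 20.1 ± 4.26 FPKM. Tagln was listed at 3.06 FPKM, but 67.9% of its exonic bases lie under exons of Gm48529 on the other strand, and whether counting used the strand is not given in the sources used here, so its level is uncertain. Actc1, the cardiac alpha-actin, was at 31.8, 41.4, 43.3, 24.7 and 6.42 FPKM, again lowest in lung 5, 6.74 times apart and 1.75 times without lung 5.

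Alveolar myofibroblast genes had a median of -0.41 log2 units in lung 1 and 0.19 in lung 3 against the median lung. Aspn, a small proteoglycan, was at 82.7, 123, 184, 146 and 126 FPKM and Tgfbi, an adhesion protein of the matrix, at 36.2, 47.5, 103, 62 and 63.9 FPKM. In both, lung 3 was the highest and lung 1 the lowest, 2.23 and 2.86 times apart. The list was split, with lung 3 the highest in 4 of the 7 genes and the lowest in 3. The genes lowest in lung 3 were Stc1 (4.02, 3.73, 2.96, 4.05 and 3.75), Hhip, an inhibitor of hedgehog ligands (20.2, 22.6, 16.1, 20.2 and 23.8), and Enpp2, the secreted enzyme autotaxin (28.2, 22.5, 16.3, 23.3 and 23.5), which was highest in lung 1. Fgf18 averaged 13.6 ± 1.97 FPKM. Of 7 genes 3 spread by 2-fold, with or without lung 5, against 13.1% and 10.5% of all genes.

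Mesothelial genes, from the outer lining of the lung, were highest in lung 5. Msln, mesothelin, was at 30.3, 42.2, 29.4, 38.1 and 66.6 FPKM, the uroplakin Upk3b at 8.90, 13.8, 7.53, 11.6 and 25.2 and Lrrn4 at 2.25, 3, 1.39, 2.04 and 5.94 FPKM. Lung 5 was the highest and lung 3 the lowest in 6 of the 6 measured genes. At least 2-fold spread was found in 4 of 6, and in 2 of 6 without lung 5, against 13.1% and 10.5% of all genes. Lung 5 thus combined the highest mesothelial with the lowest airway levels, and its AT2 and AT1 lists were at 0.00 and 0.14 log2 units from the median lung.

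Among immune cell lists, that of alveolar macrophages had the highest sum, at 186 ± 117 FPKM, but Chil3 alone gave 101 of it. By the median of the gene means this list ranked 17, below the interstitial macrophage (14) and B cell (16) lists. Chil3, a chitinase-like protein of alveolar macrophages, was at 277, 39.4, 39.4, 108 and 38.9 FPKM in lungs 1 to 5. Lung 1 was 7.12 times the lowest, lung 4 was intermediate and the other 3 lay within a narrow band. Ear2, an eosinophil-associated ribonuclease, averaged 42.8 ± 10.9, the collagenous scavenger receptor Marco 3.88 ± 1.15 and Siglecf 1.92 ± 0.527 FPKM, and Fabp4 was low at 0.847 ± 0.342. Of the 50-base words of Chil3 and Ear2, 29.4% and 41.5% occur in another gene, so their levels are less certain. Of the 10 alveolar macrophage genes 6 spread by at least 2-fold (5 without lung 5), against 13.1% of all genes (10.5% without lung 5) and 12.0% of those at 1 to 10 FPKM. Among interstitial macrophage genes, 1 of 7 did so, with C1qa, of the first complement component, at 29.5 ± 4.19, the receptor for CSF1 Csf1r at 20.5 ± 2.68 and Cx3cr1 at 3.95 ± 0.656 FPKM.

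Neutrophil genes were low. S100a9, a calcium-binding protein of granulocytes, was at 30.2, 27.9, 32.8, 30 and 14.4 FPKM and its partner S100a8 at 11.6, 12.8, 14.9, 12.4 and 5.96. Lung 5 was the lowest in both, below the narrow band of the other 4. The granule gene Ngp was at 10.7, 7.25, 8.48, 4.28 and 3.67 FPKM. Of 8 genes 6 spread by 2-fold, and 3 of 8 without lung 5, against 13.1% and 10.5% of all genes. Ly6g averaged 0.149 FPKM.

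Genes of B cells were above those of T cells by the sum of their lists (78.8 ± 9.79 against 19.4 ± 2.24 FPKM). The B cell receptor genes Cd79b and Cd79a averaged 16.4 ± 2.36 and 11.8 ± 1.62 FPKM and Ighm, the IgM heavy chain, 42.2 ± 5.58. Of the T cell genes Trac was at 4.51 ± 0.515, Cd3e at 0.71 ± 0.0517 and Cd8a at 0.972 ± 0.0659 FPKM. None of the 6 B cell or 8 T cell genes spread by 2-fold, against 12.0% of all genes at 1 to 10 FPKM, but their median SD was 0.20 and 0.26 log2 units beside 0.17 for all genes. In 6 of 6 B cell genes lung 5 was the lowest. Of the NK cell genes Gzma, granzyme A, was at 0.942, 0.950, 1.48, 0.520 and 3.48 FPKM and Nkg7 at 1.04, 1.63, 1.57, 1.03 and 2.64, both highest in lung 5, while Ncr1 averaged 0.176. Mast cell and basophil genes were represented by Cpa3 (1.70 ± 0.369).

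Platelet genes stood out in lung 3. Ppbp, a chemokine of platelet granules, was at 6.38, 4.02, 14.1, 5.56 and 2.55 FPKM, Gp9 at 3.16, 1.99, 6.87, 2.67 and 1.76 and Pf4, platelet factor 4, at 11.5, 9.79, 16.1, 13.4 and 8.92. Lung 3 was the highest and lung 5 the lowest in each. The median of the 4 measured genes was 1.02 log2 units in lung 3 against the median lung. A 2-fold spread was found in 3 of 4, with or without lung 5, against 13.1% and 10.5% of all genes. Gp1bb was at 0 in every lung, but 92.9% of its exonic bases are also exons of Sept5, so this gives no level for it.

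The MHC class II genes, which serve antigen presentation, were led by the invariant chain Cd74, at 471, 496, 380.3, 521 and 491 FPKM, and by H2-Eb1 (102 ± 14.2). Lung 3 was the lowest in 7 of 7 class II genes, with a median of -0.37 log2 units from the median lung. None of the 7 spread by 2-fold, which is near the share over all genes (12.0% at 1 to 10 FPKM, 1.88% at 10 to 100 and 4.83% above 100).

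Globin transcripts were measured in each lung although the methods describe perfusion with saline to clear the blood from the vessels. Hbb-bs was at 751, 1168, 1289, 1250.4 and 703 FPKM, with lungs 1 and 5 below the other 3, and Alas2, the erythroid enzyme of heme synthesis, at 16, 24.2, 24.7, 23.2 and 18.2. Hba-a2 was at 11.9, 56, 116, 56.8 and 40.2 FPKM. Hba-a2 and Hba-a1 are near copies, with 86.9% and 67.5% of their 50-base words in another gene. In recovered fragments Hba-a2 spread by 10.3 times, but the sum of both by 1.68 times.

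Most markers of other tissues were close to 0. Alb, the liver albumin, averaged 0.517 FPKM, the cartilage gene Col2a1 0.154, the skeletal muscle gene Acta1 0.210, the fat gene Adipoq 0.0153 and the thymocyte gene Rag1 0.176. The atrial gene Nppa had fragments in lung 3 only (0.184 FPKM), and the cardiac gene Myh6 averaged 0.318. Of the 53 genes in these 7 lists 13 were above the limit. The highest was Actc1 of the cardiac list, with 29.5 of the 33.3 ± 16 FPKM of that list, and others were Mbp (4.02 ± 0.286), Krt10 (1.67 ± 0.339) and Cidec (2.59 ± 0.942).

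The extracellular matrix was one of the largest programs of the sham lung. The 12 elastic fibre genes summed to 4679 ± 595 FPKM and the 12 collagen genes to 2273 ± 244. Beside Eln and Mfap4, the elastic fibre list held Ltbp4, which is needed for elastic fibre assembly, at 125 ± 15.2, the cross-linking enzymes Lox and Loxl1 at 88.2 ± 12 and 87.9 ± 16.6, Fbln5 at 64.6 ± 8.41, Fbn1 at 53.6 ± 3.96 and Mfap5 at 14.5, 18.5, 20.9, 16.7 and 17.4 FPKM. Fbn2, the fibrillin of the fetal lung, was at 1.75 ± 0.286. Among collagens the basement membrane chains Col4a1 and Col4a2 were highest, at 574, 590.2, 443, 485 and 686 and 431, 454, 329, 353 and 529 FPKM, with lung 5 highest and lung 3 lowest in both. The fibrillar collagens Col3a1, Col1a1 and Col1a2 averaged 376 ± 26.8, 228 ± 29.5 and 154 ± 12.7. A 2-fold spread was found in 0 of 12 genes of either list, which is near the share of 1.88% to 4.83% over all genes at 10 FPKM and above.

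The variation between the sham lungs was small for most genes. Over the 15316 genes the median SD was 0.17 log2 units, and 2012 genes (13.1%) had a highest lung at least 2-fold the lowest. Among the 11671 genes with a mean of at least 100 fragments this share was 3.08% (359 genes), and 2.3% without lung 5. Of the 437 list entries above the limit, where H19 and Meg3 count once per list, 89 spread by 2-fold, or 66 without lung 5. They included 16 of 41 epithelial, 3 of 41 endothelial, 14 of 46 mesenchymal and 19 of 49 immune genes (12, 3, 9 and 14 without lung 5). With 5 lungs of 1 group no difference between conditions was tested.

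**Figure D4:**
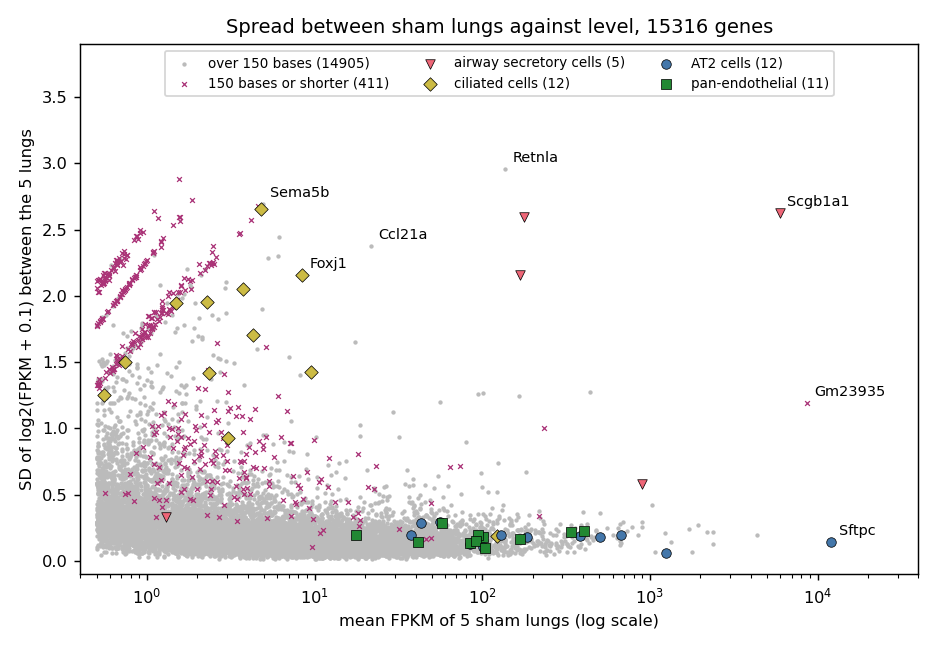
SD of log2(FPKM + 0.1) between the 5 sham lungs against mean FPKM (log scale), 1 point per gene for the 15316 genes. Most secretory and ciliated genes lie far above the band of genes of like level, AT2 and pan-endothelial genes lie within it, and genes of 150 bases or shorter fill the upper left.

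Short genes filled much of the top of the ranking by spread. Of the 25 genes with the largest SD among the 11453 with a mean of at least 2 FPKM, 15 were 150 bases or shorter and had only 1.2 to 5.6 fragments on average, such as the mitochondrial tRNA mt-Tm (0, 5.38, 3.08, 5.31 and 4.16) and the snoRNA Snord98 (2.57, 3.27, 0, 4.83 and 1.77). Their spread is at the level of single fragments. The other 10 were Retnla, Sema5b, Ccdc153, Scgb1a1, Scgb3a2, Tmem212, Ccl21a, Gabrp, Lrrc26 and Nme9. Of these 10, 8 were lowest in lung 5. Among the 40 most variable genes over 150 bases, 34 were lowest in lung 5.

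Several of these genes were in no list but had the same lungs at the ends as the airway lists. Gabrp, a GABA receptor subunit, was at 6.73, 6.04, 12.3, 5.14 and 0.119 FPKM, Tmem212 at 8.01, 6.52, 12.2, 3.80 and 0.0802 and Lrrc26, a subunit of potassium channels in secretory epithelia, at 5.95, 5.98, 10, 4.48 and 0.0965. In each, lung 3 was the highest and lung 5 the lowest. The same ends were found for Spata18 (4.65, 3.30, 5.19, 1.66 and 0.0545), Lrrc23, a radial spoke protein (6.04, 4.47, 9.53, 3.95 and 0.232), Dnali1, an axonemal dynein light intermediate chain (2.87, 2.36, 5.33, 2.58 and 0.108), and Nme9 (2.48, 1.63, 5.47, 1.57 and 0). Of other genes named for their spread it held for Aldh3a1, an aldehyde dehydrogenase (2.38, 1.64, 4.95, 0.889 and 0.473), and Pon1, a paraoxonase (3.17, 2.25, 6.67, 2.29 and 0.813). Cxcl17, a chemokine of mucosal epithelia, was at 1.98, 1.95, 7.75, 1.65 and 0.302 FPKM.

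**Figure D5:**
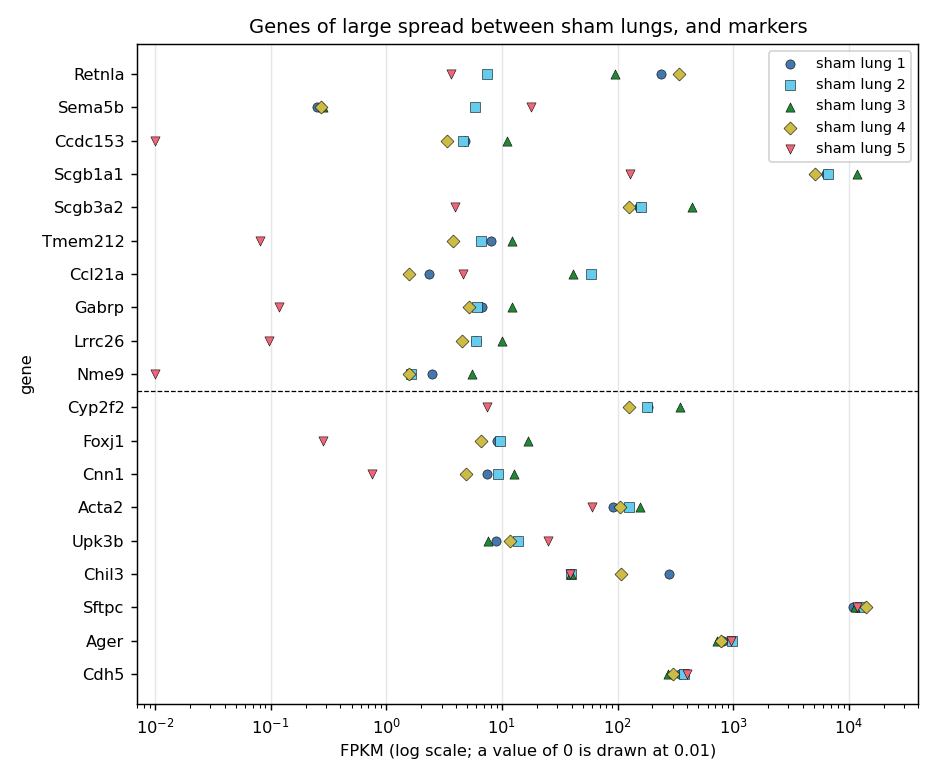
FPKM (log scale) in each of the 5 sham lungs for the 10 most variable genes longer than 150 bases and for 9 genes of the cell lists. Of the 10, 8 have their lowest level in lung 5, Retnla, Sema5b and Ccl21a follow other orders, and Sftpc, Ager and Cdh5 are nearly level.

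Retnla had the largest SD of the ranked genes with all 5 lungs, 2.95 log2 units. Without lung 5 it had 2.48, below Ccl21a (2.68) and several short genes, among them mt-Tm (2.78), Gm25321 (2.74) and Snord98 (2.60). By coefficient of variation with counting variance removed, Sema5b (156%), Gm2260 (141%) and Ccl21a (123%) were among the genes above Retnla (109%). Retnla (chr16:48842551-48844461, plus strand) codes for a resistin-like protein that is induced by type 2 cytokines in macrophages and epithelium. It was at 235, 7.44, 94.1, 343 and 3.64 FPKM in lungs 1 to 5. Lungs 1, 3 and 4 were high and lungs 2 and 5 low, 94.0 times apart at the ends and 46.0 times without lung 5. Ccl17, a chemokine for type 2 helper cells, was at 4.44, 0.723, 1.76, 8.75 and 0.782 FPKM, and Ccl11, eotaxin, at 2.68, 0.785, 1.77, 3.92 and 0.265 FPKM. Lungs 1 and 4 were the highest of the 5 for Retnla, Chil3, Ccl17 and Ccl11, and lungs 2 and 5 the lowest for Retnla, Ccl17 and Ccl11.

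Sema5b, a transmembrane semaphorin (chr16:35541145-35664732, plus strand), had an order of its own. It was at 0.252, 5.85, 0.285, 0.273 and 18 FPKM, so that lungs 5 and 2 were high and the other 3 within 0.252 to 0.285. Ccl21a, the lymphatic chemokine for dendritic cells and T cells, was at 2.36, 59.3, 41.2, 1.56 and 4.57 FPKM in the entry on an unplaced scaffold, with lungs 2 and 3 high and lungs 1 and 4 low. A second entry of the same name was at 0 in lungs 1, 3 and 5 and at 0.061 and 0.0601 FPKM in lungs 2 and 4. Mouse strains carry near-identical copies of this gene, so its level is uncertain.

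Some further names were pseudogenes or genes that share sequence with another gene. Sumo2, which codes for a small ubiquitin-like modifier, had 293, 114, 1331, 982 and 106 fragments in lungs 1 to 5. Of its 50-base words 30.2% occur in another gene, and Gm10241 shares the most of them. Gm10241 had 569, 704, 88, 468 and 625 fragments. Lung 3 was the highest for Sumo2 and the lowest for Gm10241, and their sum spread by 1.98 times against 12.6 and 8 for each alone. Whether the placing of fragments between such genes set these spreads was not tested. The pseudogene Ube2n-ps1 was at 26.8, 5.20, 3.24, 3.42 and 2.13 FPKM, with lung 1 apart from the other 4.

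Each lung had genes that lay outside the range of the other 4 by at least 2-fold from their median. Among the 11318 genes over 150 bases with a mean of at least 2 FPKM, lung 5 had 14 higher and 92 lower, and lung 3 had 60 higher and 9 lower. Lung 1 had 10 higher and 38 lower, lung 2 had 6 and 10, and lung 4 had 15 and 8. In lung 5 the higher genes included H2-Q6, a class I gene of the Qa-2 group, at 4.78, 2.29, 4.03, 4.42 and 12.8, Ccl5, a chemokine of lymphocytes, at 1.63, 1.88, 1.77, 2.40 and 5.62, and Aldh1a2, a retinoic acid synthesizing enzyme, at 4.23, 6.19, 3.40, 5.20 and 9.64 FPKM. Complement C4b was at 9.90, 9.44, 6.63, 7.83 and 18.1 FPKM, also highest in lung 5. In lung 3 Nqo1, a quinone reductase, was highest at 1.54, 1.78, 4.99, 2.16 and 0.777. In lung 2 the immediate early gene Egr1 was highest at 2.71, 7.79, 3.20, 6.92 and 3.54 FPKM. In lung 4 Esm1, a proteoglycan of endothelial tip cells, was highest at 14.6, 8.99, 9.10, 21.8 and 5.81 and Hoxa7 at 2.62, 2.07, 4.99, 6.29 and 2.24. In lung 1 Prss35, a protease-like protein, was lowest at 3.35, 7.64, 16.1, 9.74 and 8.30 and Cilp, a matrix protein, at 0.904, 2.71, 2.72, 2.50 and 2.61 FPKM.

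At the other end, 10 genes with a mean of at least 50 FPKM varied least. Anxa3, an annexin, was at 72.1, 72.7, 70.7, 74.1 and 72.1 FPKM (SD of 0.02 log2 units) and Calu, a calcium-binding protein of the endoplasmic reticulum, at 106, 111, 108, 107 and 108. Their lungs lay within 1.05 times. The others were Gde1, Reep5, Rab10, Cct2, Sf3b2, Ssr3, Mtpn and Sar1a, which serve membrane traffic, protein folding, splicing and translocation among other roles, with ratios of up to 1.08. Sf3b2, a splicing factor, averaged 62.3 ± 1.60 and Cct2, a subunit of the chaperonin, 58.1 ± 1.45 FPKM.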

How the data were processed

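Lungs of the sham group were profiled by bulk RNA-sequencing of NEBNext libraries made from total RNA (Trizol by the labels, a column kit by the methods). The authors deposited 1 table of FPKM per gene and lung, with the length of each gene in bases. Bowtie 0.12.2 and the builds GRCm38, mm10 and hg38 appear in the submitters' processing notes without a role; the aligner, the counter and the use of strand are not given in the sources used here. Of the 15316 genes 15309 were in GENCODE M21, and 96.3% of these had the same coordinates on GRCm38. The 5 fistula columns were not used here, and 0 columns were left unmapped.

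FPKM multiplied by gene length gave whole multiples of 1 step for 100% of the values (within 0.02), so fragments per gene were recovered. They were used for depth, for the floor of 3 fragments, for the limit of 100 fragments and for the chi-square between lungs. The ranking and share by fragments, the sums of near copies and the counting variance also rest on them. Spread was the SD of log2(FPKM + 0.1) and the ratio of the highest to the lowest lung, with lows raised to 3 fragments. A 2-fold ratio is a description, not a test. Exon overlap and shared 50-base words are given for some genes only. Other named genes also share words with another gene, among them Hbb-bs (65.8%), Hspa8 (52.7%), Ccnb1 (42.1%) and Pcna (31.8%). Of the 537 list entries 536 were in the table, 437 of them at a mean of at least 0.5 FPKM, and 99 below it. H19 and Meg3 are counted once for each list that holds them. The procedure was tested on simulated data. Python 3.11.15, pandas 2.3.3, numpy 2.4.6 and matplotlib 3.10.9 were used.

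The members, lists and rules were chosen with earlier results of these data known. Genes were named if they were among the 25 highest, in a list, among the 25 most variable at a mean of at least 2 FPKM, among the 10 farthest from the other 4 lungs in a lung, or among the 10 most stable at a mean of at least 50 FPKM. Others came from the same rankings over genes longer than 150 bases, which were followed further down, as for Nqo1, Pon1 and Prss35. These rankings were added after the data were seen. Names outside this rule, chosen after their values were seen, were the copies of Gm23935, CT010467.1, Lars2, H2-Q6, Ccl5, C4b and Aldh1a2. Alternatives were other pseudocounts (1 and 0.01), filters, scalings, Spearman's rho, unlogged values, list medians and each lung left out in turn. Results on some items are not reported here.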

Additional observations from a re-analysis of the deposited data

Results flagged for a closer look

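In a group of 5 lungs a value was picked out here when the gap of the highest or lowest lung to its neighbour, divided by the whole range, passed 0.71 (Dixon's 95% limit for 5). Chance passes this limit in about 1 of 20 groups not chosen by their values. Of 41 lists 5 passed, and of 36 abundant, variable or marker genes 6 passed, and in 8 of these 11 the lung apart was lung 5. The 6 genes came from the ranking by spread, which favours genes with a lung far away, so the chance rate does not apply to them. It does not apply to the lists either. Their values are medians of deviations from the median lung, which hold the middle lungs near 0 and widen the gap relative to the range. The gene values are on the log2(FPKM + 0.1) scale, and the genes are not independent of the lists that hold them.

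Lung 5 was far below the other lungs for airway genes. The gap was 0.785 of the range for the airway secretory list and 0.729 for the ciliated list. Among genes it was 0.816 for Scgb1a1, 0.735 for Scgb3a2, 0.751 for Ccdc153, 0.727 for Tmem212, 0.787 for Gabrp and 0.799 for Lrrc26. In the other lists lung 4 was low for lymphatic genes (0.807, a median of -0.40 log2 units from the median lung). Lung 3 was low for MHC class II genes (0.828, -0.37 log2 units). Lung 1 was high for sterol and fatty acid synthesis genes (0.839, 0.10 log2 units).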

How the results depend on the processing

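No paired analysis was possible because the sham lungs form a single group and no comparison between groups was made. Of the 39 alternatives that kept all lungs 20 stayed within a set limit and 19 moved further, and of the 60 that left out a lung 58 and 2. For counts the limit was a fixed ratio to the reported count, and for other values the SD between lungs or pairs of lungs. The variance share of the first principal component had no such limit, so any change of it counted as moved. Without a filter 28993 genes were above 0, and 5820 spread by at least 2-fold. With a mean of at least 1 FPKM 1097 did, and with a mean of at least 100 fragments (chosen after seeing the data) 359, against 2012 as reported. The share of the 10 highest genes was 6.18% by fragments and 13.1% of FPKM without Gm23935 (chosen after seeing the data), against 15.2%. The mean correlation of lungs was 0.979 by Spearman's rho, 0.981 with a pseudocount of 1 and 0.984 over genes with at least 100 fragments (chosen after seeing the data), against 0.958. The AT2 share of the cell type lists was 20.1% by list medians, against 48.0% by sums.

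With each lung left out in turn the number of genes was 15246 to 15399, the share of the 10 highest 14.6% to 15.8%, the 2-fold count 1567 to 1702, the mean correlation 0.956 to 0.963 and the AT2 share 45.3% to 50.5%. The mean of Sftpc was 11601 to 12386, of Ager 821 to 885, of Cdh5 325 to 355, of Scgb1a1 4556 to 7460.1 and of Acta2 95.8 to 119.6 FPKM. The 25 most variable genes shared 12 to 22 members with those reported, 12 of them without lung 5 and 14 without lung 2, and 12 with a pseudocount of 1. They shared 8 by coefficient of variation with counting variance removed, and, in choices made after seeing the data, 8 among genes with at least 100 fragments and 10 among genes over 150 bases. Depth limits the genes of 150 bases or shorter, where a few fragments set the value.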

Other observations

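Programs that belong to no single cell type were also read in the sham lungs. The cytosolic ribosomal proteins (80 of 85 genes above 0.5 FPKM) summed to 10592 ± 1379.9 FPKM, and the lowest lung was lung 5 for 40 of them and lung 1 for 37. Mitosis genes were low, with Mki67, the proliferation antigen, at 4.77, 4.17, 6.29, 5.34 and 5.06 FPKM in lungs 1 to 5, Top2a, a topoisomerase, at 6.46, 3.93, 7.27, 5.61 and 4.72 and Ccnb1, cyclin B1, at 2.10, 1.31, 2.95, 2.15 and 1.46. Lung 3 was the highest in 11 of 12 mitosis genes and lung 2 the lowest in 11 of 12, and 5 of 12 spread by at least 2-fold. S phase genes, such as Pcna (31 ± 2.39) and Mcm6 (9.49 ± 0.823), did so in 0 of 12. Over all genes the share was 13.1%.

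Glucocorticoid targets were at substantial levels. Tsc22d3, which codes for GILZ, was at 168, 152, 120.4, 117 and 178 FPKM, Zbtb16 at 30.5, 36.7, 26.5, 26.6 and 41.4 and Fkbp5, a co-chaperone of the receptor, at 12, 9.99, 11.9, 7.35 and 14.2. Lung 5 was the highest in 8 of 14 and lung 4 the lowest in 8 of 14 of these genes, and 3 of 14 spread by 2-fold (0 without lung 5). Among immediate early genes, which respond within minutes to handling and stimulation, Jun was at 95.9, 109.9, 78.1, 93.3 and 111, Fos at 5.64, 8.30, 3.89, 10.3 and 6.20 and Dusp1 at 61.8, 82.9, 33.2, 61.8 and 53 FPKM, and 5 of 13 spread by 2-fold. Heat shock genes did so in 0 of 7, with Hspa8, the constitutive chaperone, at 225 ± 21.3 FPKM. The clock genes Per1, Nr1d1 and Arntl were at 35.1, 31.8, 25.4, 24.4 and 39.2, 6.93, 10.9, 7.77, 10 and 7.58 and 3.10, 3.28, 4.13, 2.91 and 3.41 FPKM, and 0 of 15 circadian genes spread by 2-fold. Of the 13 interferon genes, such as Bst2 (64.9 ± 6.64) and Isg15 (8.95 ± 1.70), 0 did so. Over all genes the share with a 2-fold spread was 13.1%, or 10.5% without lung 5.

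Imprinted growth genes were present at P14. Cdkn1c, a cell cycle inhibitor, averaged 51.9 ± 2.30, Grb10 27.4 ± 2.64, Peg3 24.8 ± 6.51, Igf2r 19.8 ± 1.61 and H19 7.07 ± 1.71 FPKM. Igf2 was listed at 0.0781 FPKM, but 64.5% of its exonic bases lie under exons of Gm49394, so its level is uncertain. Of the genes for fatty acid and sterol synthesis, which supply surfactant lipids among other uses, Scd1, a desaturase, averaged 162 ± 18.7, Fasn, the fatty acid synthase, 36.6 ± 7.78, and Hmgcs1, of the sterol branch, 16.5 ± 1.41 FPKM. The nuclear RNA Malat1 was at 78.3, 61, 79.1, 132 and 151 FPKM, with lungs 4 and 5 above the other 3.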
